A study of Mus musculus with 2 samples.

Results

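MicroRNA genes typical of kidney tubules or hepatocytes were measured in adrenal gland, the endocrine organ that lies against the kidney and, on the right side, close to the liver. The genes are Mir122, Mir192, Mir194-1, Mir194-2, Mir204, Mir211 and Mir215. They were chosen by symbol, as genes known from those organs, and make up 7 of the 2202 microRNA genes in the deposited tables. The study holds 2 libraries of 1 group, biological replicates 1 and 2, made from total RNA of wild-type C57BL/6J adrenal tissue by small RNA sequencing with no treatment named. The labels give both tissue samples the same donor identifier and an unknown age, and they disagree on sex (female in one field, not collected in another). They do not say that the replicates came from separate animals, so differences between them may be technical. The series has no kidney or liver library, so the levels below cannot be turned into a share of kidney or liver cells. In whole tissue, fewer cells of a type and less RNA per cell cannot be told apart.

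A microRNA is cut from a hairpin precursor into products of the 5′ arm (5p) and the 3′ arm (3p), and its seed, bases 2 to 8 of the product, leads target recognition. Mir192 and Mir194-2 lie next to each other, as do Mir194-1 and Mir215, and these genes are known for high levels in proximal tubule, gut epithelium and liver. Mir204 is known from kidney, choroid plexus and retinal pigment epithelium, and its relative Mir211 from melanocytes. Mir122 is the dominant microRNA of hepatocytes, where it acts in cholesterol and lipid metabolism.

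The mature products are shown because they decide which members can be told apart by a read. Of the 7 genes, 6 were matched in the RefSeq microRNA set (GRCm38.p6) as used here. That set held no entry for Mir122, which does not show whether RefSeq as a whole holds the gene. Sequences run 5′ to 3′ with the seed in capitals.
miR-192-5p: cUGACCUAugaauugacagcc
miR-215-5p: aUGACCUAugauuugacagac
miR-204-5p: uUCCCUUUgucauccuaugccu
miR-211-5p: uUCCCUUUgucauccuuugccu
miR-194-5p: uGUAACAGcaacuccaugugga
miR-194-1-3p: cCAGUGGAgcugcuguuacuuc
miR-194-2-3p: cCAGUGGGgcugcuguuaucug

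The products of Mir192 and Mir215 have the same seed and differ at 3 of 21 bases: C1A, A12U and C20A, counted from the 5′ end with the base of miR-192-5p first. The products of Mir204 and Mir211 have the same seed and differ at 1 of 22 bases, A17U. No other product in the RefSeq set as used here has the seed of miR-192-5p, and 1 other product, miR-7670-3p, has that of miR-204-5p. miR-194-5p is identical in both miR-194 hairpins, so a read of exactly this product aligns to 2 genes. The hairpins differ from the first base on either side of it. Their 3p products differ at 4 of 22 bases (A8G, C19U, U20C and C22G, with the base of miR-194-1-3p first), and the first of these lies in the seed. Reads with several alignments were kept in a row of their own and made up 35.9% and 36.0% of the reads in replicates 1 and 2. The counts of Mir194-1 and Mir194-2 are therefore uncertain and may be too low.

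Replicate 1 held 9137907 counts on the strand of a gene and replicate 2 held 6570375. Levels are given as CPM, counts per 1000000 of that total. A small RNA read spans a whole product, so CPM was not divided by gene length. At these depths 1 read was worth 0.109 and 0.152 CPM. Intervals in brackets are exact (Clopper-Pearson) 95% intervals and cover counting error only, as they rest on the read counts alone. The reads carry no stated molecular identifiers, so amplification duplicates are not covered either. How far reads of different products reflect their amounts was not tested, so comparisons between genes or lists are of counts only.

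All 7 genes had reads in both libraries, but they fell into 2 classes of abundance. Mir122, Mir204, Mir192 and Mir194-2 had at least 10 counts in both libraries, 4 of 7 members where 18.3% of all genes reached this level. Mir215, Mir211 and Mir194-1 had 1 to 8 counts per library. The 4 detected genes ranked between 185 and 236 by mean CPM. Among the 403 genes detected in both libraries, 218 had a lower mean than Mir122, 183 than Mir204, 172 than Mir192 and 167 than Mir194-2.

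**Figure D1:**
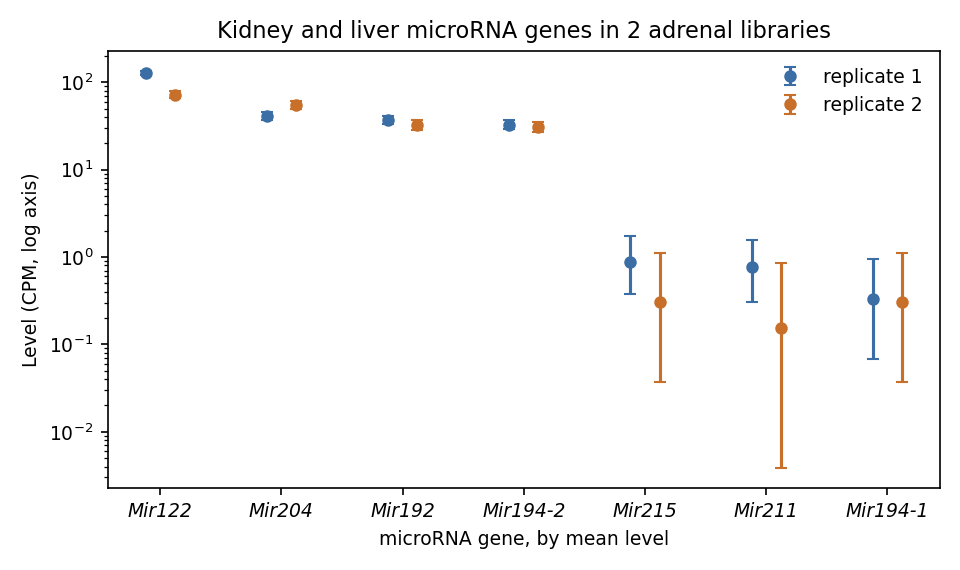
Level of each of the 7 genes in CPM (log axis) in replicate 1 and replicate 2; points are libraries and bars are exact 95% counting intervals. Mir122, Mir204, Mir192 and Mir194-2 lie between 30.7 and 128 CPM, and Mir215, Mir211 and Mir194-1 lie below 1 CPM in both libraries.

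Mir192 (ENSMUSG00000065523.1) lies on chromosome 19 at 6264844-6264932 (mm10, plus strand), outside other annotated genes. It had 340 counts in replicate 1 and 215 in replicate 2, which is 37.2 CPM (33.4 to 41.4) and 32.7 CPM (28.5 to 37.4), a mean of 35.0 ± 3.17 CPM (SD, n = 2). Mir194-2 (ENSMUSG00000065582.1) lies 115 bases before it at 6264643-6264728. It had 299 and 202 counts, 32.7 CPM (29.1 to 36.6) and 30.7 CPM (26.7 to 35.3), a mean of 31.7 ± 1.40 CPM. The nearest protein-coding gene to this pair is Atg2a, an autophagy gene 2307 bases from Mir194-2. The ratio of assigned Mir194-2 to Mir192 counts was 0.879 (0.750 to 1.03) in replicate 1 and 0.940 (0.771 to 1.14) in replicate 2. Reads that aligned to both miR-194 genes are missing from Mir194-2, so the ratio may be too low. How alike the true levels are cannot be read from it.

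Mir215 (ENSMUSG00000065562.1) and Mir194-1 (ENSMUSG00000065581.1) form the paralogous pair on chromosome 1. Mir194-1 lies at 185313319-185313385 and Mir215 at 185313581-185313692, with 195 bases between them. Both lie in an intron of Iars2, the gene of mitochondrial isoleucyl-tRNA synthetase, on its opposite strand. On their own strand, Mir215 overlaps an exon and Mir194-1 an intron of the non-coding gene 2010103J01Rik. Mir215 had 8 and 2 counts, 0.875 CPM (0.378 to 1.73) and 0.304 CPM (0.0369 to 1.10). Mir194-1 had 3 and 2 counts, 0.328 CPM (0.0677 to 0.959) and 0.304 CPM (0.0369 to 1.10). The limit that a count of 0 allows is 3 counts, 0.328 and 0.457 CPM in replicates 1 and 2. Mir215 in replicate 1 lay above this limit, with an interval that starts at 0.378 CPM. The other counts of this pair sit at or below it, so those levels are not resolved at this depth.

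Of the counts assigned to these 4 genes, the chromosome 19 pair held 98.3% (97.0 to 99.2) in replicate 1 and 99.0% (97.6 to 99.7) in replicate 2. Between the genes that share a seed, Mir192 took 97.7% (95.5 to 99.0) and 99.1% (96.7 to 99.9) of the counts of Mir192 and Mir215. Their products differ at 3 bases, as the sequences above show. For the miR-194 genes, Mir194-2 took 99.0% of the counts in each library (97.1 to 99.8 and 96.5 to 99.9). The share of the chromosome 19 pair and that of Mir194-2 leave out every read that aligned to both miR-194 genes, and the part these reads play was not tested.

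**Figure D2:**
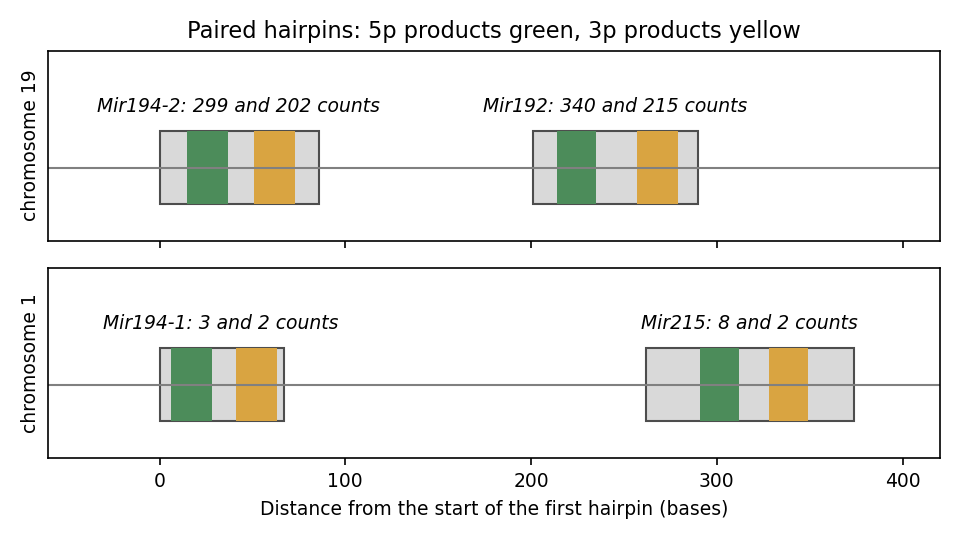
The pairs Mir194-2 and Mir192 (top, chromosome 19) and Mir194-1 and Mir215 (bottom, chromosome 1), drawn to scale as distance in bases from the start of the first hairpin; boxes are annotated hairpins, with the 5p product in green and the 3p product in yellow. Counts in replicates 1 and 2 are written above each hairpin: 299 and 202, 340 and 215 in the top pair, and 3 and 2, 8 and 2 in the bottom pair.

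Mir204 (ENSMUSG00000065507.3) lies on chromosome 19 at 22750605-22750672, on the strand of its host Trpm3, a cation channel gene, in an intron. It had 378 and 357 counts, 41.4 CPM (37.3 to 45.8) in replicate 1 and 54.3 CPM (48.8 to 60.3) in replicate 2, a mean of 47.9 ± 9.17 CPM (SD, n = 2). It was the leading gene of the kidney list, with 41.3% of its summed level. Mir211 (ENSMUSG00000065585.1) lies on chromosome 7 at 64205806-64205911, in an intron of Trpm1, the channel gene related to Trpm3, on the same strand. It had 7 counts in replicate 1 and 1 in replicate 2, 0.766 CPM (0.308 to 1.58) and 0.152 CPM (0.00385 to 0.848). Mir204 thus held 98.2% (96.3 to 99.3) and 99.7% (98.5 to 99.99) of the counts of the 2 genes, whose 5p products share a seed and differ at 1 base.

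The 6 genes of the kidney list together had 1035 and 779 counts, 113 CPM in replicate 1 and 119 CPM in replicate 2. Their mean of 116 ± 3.75 CPM (SD, n = 2) is 0.0116% of the counts. Reads that aligned to both miR-194 genes are not in this sum, which may be too low. By the background above, none of these genes is known from kidney alone, and most are also known from liver. The sum therefore does not measure kidney apart from liver or other tissue. Within the sum, Mir204 had 13.0 CPM more in replicate 2, while Mir192 had 4.49 and Mir194-2 1.98 CPM more in replicate 1. On a log2 scale the sum differed by -0.04 (-0.17 to 0.10), replicate 2 over replicate 1, after the library sizes were scaled by TMM, the trimmed mean of M values, so its sign turned with the scaling.

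Mir122 (ENSMUSG00000065402.1) lies on chromosome 18 at 65248861-65248926, in an exon of the long non-coding gene AC157910.3 on the same strand. It had the highest level of the members, at 1171 and 470 counts. That is 128 CPM (121 to 136) in replicate 1 and 71.5 CPM (65.2 to 78.3) in replicate 2, a mean of 99.8 ± 40.0 CPM (SD, n = 2). Its level in replicate 1 alone exceeded the sum of the 6 genes of the kidney list, and in replicate 2 it did not.

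By mean CPM the order was Mir122, Mir204, Mir192, Mir194-2, Mir215, Mir211 and Mir194-1. Mir122 lay above Mir204 in both libraries, and the values of these genes did not overlap. Mir204 lay above Mir192 in both, but in replicate 1 their ratio of 1.11 (0.958 to 1.29) did not differ from 1 beyond counting error. The assigned counts of Mir192 and Mir194-2 did not differ beyond counting error in either library, with reads shared by the miR-194 genes left out. The values of Mir215, Mir211 and Mir194-1 overlapped. Divided by hairpin length, the order changed only in that Mir194-1 and Mir211 exchanged places.

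The only comparison the samples allow is of the libraries with each other. It describes these libraries, not conditions or animals in general. An exact two-sided binomial test set the counts of each gene against the TMM-scaled library sizes, for the 426 genes whose counts summed to 20 or more, with Benjamini-Hochberg adjustment over them. Of these genes, 56.1% passed an adjusted p of 0.05: replicate 1 was the higher library for 30.3% of the tested genes and replicate 2 for 25.8%. TMM shifted all log2 ratios by -0.10 against total counts, under which 93 genes were higher in replicate 1 and 150 in replicate 2, in place of 129 and 110.

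Of the 4 members with enough counts, 3 passed, a count to be read against the 56.1% of all tested genes that did so. Mir122 and Mir192 were higher in replicate 1 and Mir204 was higher in replicate 2. Mir122, at 128 and 71.5 CPM, had a log2 ratio of -0.94 (-1.10 to -0.79), or 1.92-fold higher in replicate 1 (adjusted p = 8.30e-35, exact binomial test). Of the tested genes, 85.9% had a smaller absolute log2 ratio than Mir122. Mir204 had a log2 ratio of 0.29 (0.08 to 0.50, adjusted p = 0.0132, exact binomial test), near the median absolute ratio of 0.29 over all tested genes.

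Mir192 had a log2 ratio of -0.29 (-0.54 to -0.04, adjusted p = 0.0419, exact binomial test). Its call was lost when libraries were scaled by total counts (adjusted p = 0.222) or by DESeq2 size factors (0.0522), and without the filter on low counts (0.0766), with exact binomial tests throughout. Mir194-2 had a log2 ratio of -0.19 (-0.46 to 0.07) and did not pass (adjusted p = 0.219, exact binomial test). The median over the 4 tested members was -0.24, against -0.03 over all tested genes. The 4 ratios ran from -0.94 (Mir122) to 0.29 (Mir204), so nothing particular to the members is read from this median. Mir215, Mir211 and Mir194-1 had too few counts to be tested, with log2 ratios of -1.39 (-4.90 to 0.70), -1.95 (-7.93 to 0.53) and -0.11 (-3.79 to 2.91).

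The binomial test knows counting error only. With the common spread between the libraries added (a biological coefficient of variation of 0.299, estimated from the same libraries), edgeR's exact test called 3 of the 426 genes and none of the members, and 28 genes and no member had an unadjusted p under 0.05. Mir122 then had an unadjusted p of 0.133. The difference in Mir122 was thus larger than counting error, and it did not pass the test that includes the spread over genes in this pair of libraries. The differences under test also set that spread, so the lack of a call decides little.

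**Figure D3:**
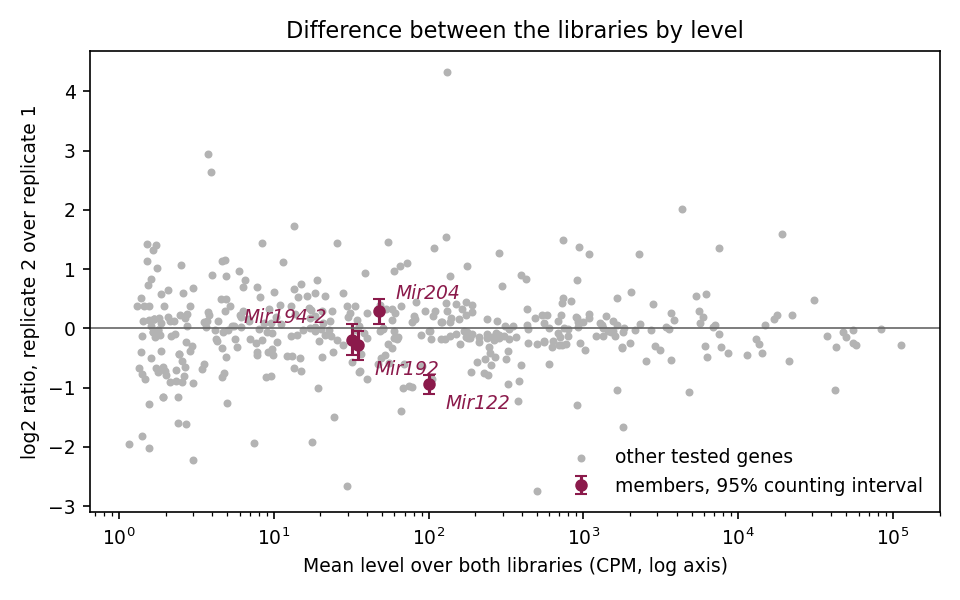
Log2 ratio of replicate 2 over replicate 1 (TMM-scaled) against mean CPM (log axis) for the 426 tested genes; the 4 tested members are marked, with exact 95% counting intervals as bars. Mir122 lies at -0.94, below the other members, and Mir204 at 0.29 is the only one of the 4 above 0.

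Ratios between members were taken within each library. The ratio of Mir122 to Mir192 counts was 3.44 (3.05 to 3.90) in replicate 1 and 2.19 (1.86 to 2.58) in replicate 2. The ratio of Mir122 to Mir204 was 3.10 (2.76 to 3.49) and 1.32 (1.14 to 1.52). The ratio of Mir204 to Mir192 was 1.11 (0.958 to 1.29) and 1.66 (1.40 to 1.98), and that of Mir204 to Mir194-2 was 1.26 (1.08 to 1.48) and 1.77 (1.48 to 2.11). Of the 6 pairs of detected members, 5 had intervals that did not overlap between the libraries, all but Mir194-2 with Mir192. Over all pairs of genes with at least 10 counts in both libraries, 40.5% had such intervals. The 6 pairs share 4 genes and the intervals cover counting error only, so nothing particular to the members is read from this count. A ratio within a library does not depend on how libraries are scaled, and it does not show which gene of a pair differed.

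**Figure D4:**
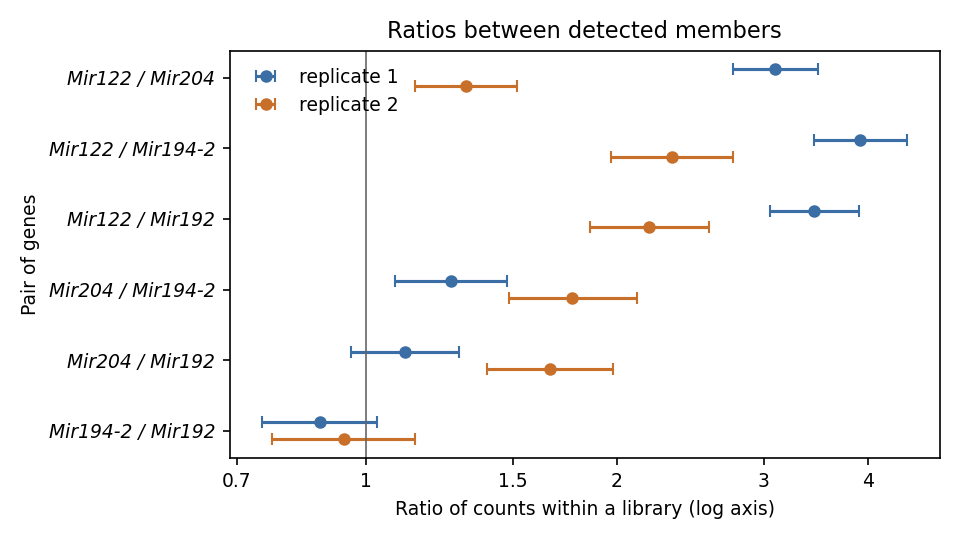
Ratio of counts within a library (log axis) for the 6 pairs of detected members in replicate 1 and replicate 2; bars are exact 95% counting intervals, and the vertical line marks equal counts. Mir194-2 to Mir192 overlaps between libraries (0.879 and 0.940), while the ratios with Mir122 lie higher in replicate 1 and those of Mir204 to Mir192 and Mir194-2 lie higher in replicate 2.

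Lists for other cell types, measured in the same way, give the kidney and liver levels a scale. Endothelial Mir126a reached 58001 ± 5199 CPM (SD, n = 2), 500-fold the summed kidney list, and the 4 neuroendocrine genes, led by Mir375, reached 52934 ± 1596 CPM. The adrenal medulla is neuroendocrine tissue, and no microRNA restricted to the adrenal cortex was on the lists. Mir375 held 93.4% of the neuroendocrine sum. The lists were chosen with earlier results known and do not test the tissue label. The smooth muscle and fibroblast list was 146-fold and the leukocyte list 22.2-fold the kidney list. Mir143 held 83.8% of the smooth muscle and fibroblast sum, and the other genes of that list had means from 0.186 to 1648 CPM. Reads with several alignments are left out of every list, so low values may be too low. Mir146 held 51.4% of the leukocyte sum, and the other leukocyte genes had means from 0 to 431 CPM. Red blood cell genes summed to 219 ± 107 CPM, with 144 CPM in replicate 1 and 295 in replicate 2. Mir451a led them with 80.8% of the sum, at 110 and 245 CPM. Of the 3 tested genes of this list 2 passed as higher in replicate 2, against 25.8% of all tested genes. Exocrine pancreas genes, led by Mir217, lay below the kidney list at 11.8 ± 3.12 CPM, and the striated muscle list, led by Mir499, at 1.49 ± 0.255 CPM, with 6 of its 9 genes at 0. Several genes of that list have identical copies, whose shared reads are not in the counts.

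Genes of duct epithelium, which includes the collecting duct of the kidney, summed to 735 ± 9.48 CPM, or 6.34-fold the kidney list. Mir203, known above all from skin and other stratified epithelium, held 93.0% of that sum, at 678 and 688 CPM. The miR-200 family members Mir200a, Mir200b, Mir200c, Mir141 and Mir429, which mark epithelium in general, had means between 1.92 and 20.2 CPM, each below Mir194-2. Of the 6 tested genes of the list 3 passed, against 56.1% of all tested genes. Mir200b was higher in replicate 2 (log2 ratio 0.55), and Mir429 (-0.82) and Mir203 (-0.08) were higher in replicate 1, although in CPM, without TMM, Mir203 was slightly higher in replicate 2. The part of epithelial or blood RNA in the members' levels was not tested.

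**Figure D5:**
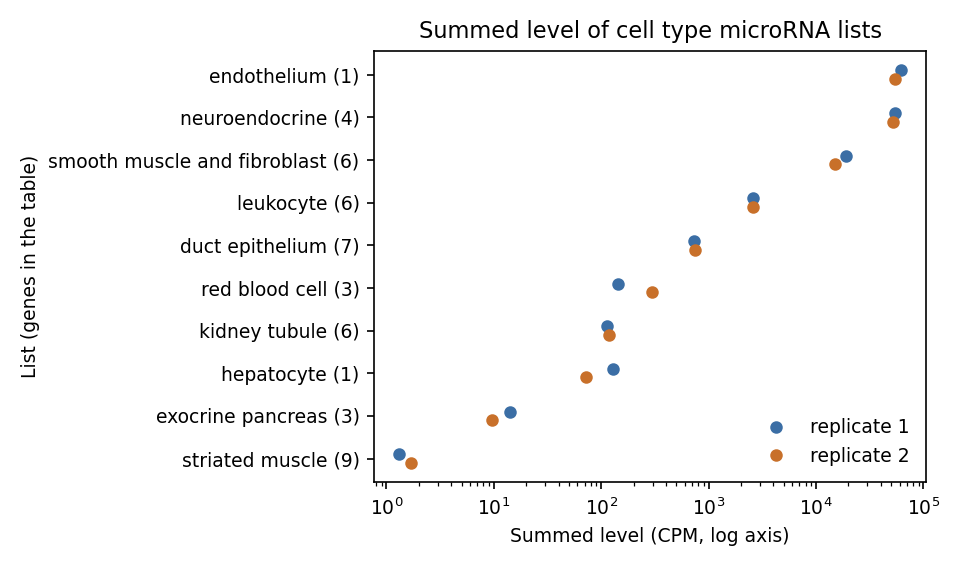
Summed CPM (log axis) of each cell type list in replicate 1 and replicate 2, with the number of genes in brackets. The kidney list (113 and 119 CPM) and Mir122 (128 and 71.5 CPM) lie between the pancreas list and the duct epithelium list.

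For each detected member the gene most like it was the one with the smallest distance in log2(CPM + 1) over the 2 libraries. Mir122 was nearest to Mir7-2 (132 and 78.5 CPM), Mir204 to Mir340 (40.1 and 56.5 CPM), Mir192 to Mir212 (40.9 and 32.4 CPM) and Mir194-2 to Gm23450 (33.2 and 35.0 CPM). A mature product of Mir7-2 is held by 2 hairpins of the RefSeq set, so its counts are uncertain. With 2 libraries, likeness means only that the levels were close.

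On the opposite strand, 6 of the 7 members had 0 counts in both libraries. Mir194-1 had 2 such counts in replicate 2 and none in replicate 1. The counts of the other members are therefore the same whether strands are taken apart or together. Their CPM still depends on the total over genes, which is smaller for counts on either strand.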

How the data were processed

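Small RNA reads were measured in 2 libraries of adrenal gland, 1 group. The authors deposited raw read counts per microRNA gene for each library, made on mm10 with GENCODE M21 per the descriptions deposited with the tables. A protocol linked in the labels is titled for adapter trimming. Aligner and counting settings are not named in the sources used here. The tables have no header, and of both stranded columns the one with more counts in genes was read as the gene's own strand. The 4 rows that name no gene were left out of library sizes. They hold 51.2% and 54.6% of the reads in replicates 1 and 2.

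All 2202 identifiers matched GENCODE M21, which gave symbols and coordinates. Levels, exact intervals and binomial tests were computed with scipy 1.17.1, TMM and the common dispersion with edgeR 4.0.16, size factors with DESeq2 1.42.0. Genes tested across the whole table had at least 20 counts over both libraries, and 0.5 counts were added to log2 ratios. With each library on its own side of the comparison, a quasi-likelihood fit has no residual degrees of freedom and was not used. Named genes are the 7 members, the leading gene of each cell type list, and the nearest gene to each detected member. The miR-200 genes and Mir194-1's opposite-strand counts were named outside this rule. The members and lists were chosen with earlier results of these data known, and the lists come from general knowledge.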

Additional observations from a re-analysis of the deposited data

How the results depend on the processing

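The count of genes that differed between the libraries stayed within 1.5 times of 239 under total-count scaling, DESeq2 size factors, other filters and counts on either strand, and that of members at 2 or 3. With the common dispersion added, edgeR's exact test called 3 genes and 0 members, with 28 genes and 0 members at an unadjusted p under 0.05. The summed kidney level of 116 CPM became 128 CPM with counts on either strand, whose total over genes is smaller, and 54.6 when all reads in the table, those in no gene included, served as the total. On that last scale Mir122 was at 47.5 CPM. Leaving out a replicate gave 113 to 119 CPM for the kidney sum and 71.5 to 128 CPM for Mir122. Mir122 and Mir204 passed under each scaling and filter tried with the binomial test. The log2 ratio of Mir194-1 was 0.72 with counts on either strand, at 3 and 4 counts. Depth limits Mir215, Mir211 and Mir194-1, whose levels and ratios cannot be read beyond their counting intervals.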
